A study of Mus musculus with 8 samples.

Results

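Osteoclast precursor (OCP) cells cultured with RANKL for 48 h were compared with cells kept in M-CSF alone, an early point of osteoclast differentiation. The comparison rests on 4 of the 8 RNA-seq libraries of the series, 2 with RANKL and 2 with M-CSF alone. The members are the 11700 of 25124 genes whose mean level over the 8 libraries was at least 0.5 FPKM, that is, read count scaled to transcript length and library size. Bone marrow cells came from femurs and tibias of C57BL/6 mice of 6 to 8 weeks by the sample labels, whereas the study's culture methods name male ICR mice of 6 weeks, so the strain is uncertain. No genetic change is named for these cells. Marrow cells were held in 5 ng/mL M-CSF for 16 h, and the nonadherent cells were expanded in 30 ng/mL M-CSF for 3 days, so M-CSF exposure is shared by every group. The adherent cells were the OCP cells, also called bone marrow-derived macrophages. The RANKL group then received 100 ng/mL RANKL. The labels do not state the M-CSF dose during the 48 h, and the study's osteoclast cultures used 30 ng/mL beside RANKL. The other 4 libraries were cells given 200 nM recombinant PRDX1, a peroxiredoxin, without or with RANKL. Nothing states whether the 2 replicates of a group were separate cultures or animals, so the p-values measure only the spread between these libraries.

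M-CSF, through its receptor Csf1r, keeps macrophage precursors alive and dividing. RANKL, a TNF family cytokine made by osteoblast lineage cells, osteocytes and lymphocytes, binds RANK (Tnfrsf11a) and signals through TRAF6 to NF-κB, MAP kinases and AP-1, while receptors that pair with ITAM adaptors supply the calcium signal that activates NFATc1. NFATc1 then drives the genes for cell fusion, attachment to bone, acid secretion and matrix digestion, and transcriptional repressors that hold the macrophage state are shut down.

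The reads on genes numbered 26959539 and 38248610 in the M-CSF libraries and 24542578 and 31267781 in the RANKL libraries, within 24542578 to 41712973 over the series. The 10 most abundant genes took 8.07% to 8.30% of these reads with M-CSF alone and 4.75% to 4.84% with RANKL. Over the series, principal component 1 took 69.3% of the spread. Replicates of a group differed by more than sampling noise, the chi-square divided by its degrees of freedom being 4.59 to 9.19, and each was counted as its own sample. The 2 by 2 design cannot give a permutation p below 0.333, so p-values come from one limma model of all genes. Fold changes are on the log2(FPKM + 1) scale, which understates genes of low level.

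RANKL moved the transcriptome in both directions. At a Benjamini-Hochberg adjusted p under 0.05 in limma and a fold change of at least 1.5, 1383 genes were higher with RANKL (11.8% of those tested) and 1165 were lower (9.96%), 21.8% in all. Neither direction had a called gene with overlapping groups, which the limits of a call favour in groups of 2, so this adds no support. With an adjusted p under 0.05 at any fold there were 7012 genes, or 59.9%. The median log2 fold change was 0.10 over all genes tested, 0.85 over those called higher and -0.93 over those called lower. Genes changed at least 4-fold were 122 higher (1.04%) and 101 lower (0.863%), and 18 rose and 4 fell at least 16-fold. The higher share of the calls depended on scaling. It was 54.3% as given, 45.2% after quantile normalization (1088 higher, 1322 lower), 47.0% after upper quartile scaling (1153 and 1302) and 43.8% by voom on reads recovered from the FPKM (1317 and 1689). Short genes pass an FPKM minimum on very few reads. Of the 2548 calls, 81 (3.18%) were genes of under 200 bases, mainly small RNAs, and Snord57, chosen after its values were seen, was called on 2 and 1 reads with M-CSF against 4 and 3 with RANKL.

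**Figure D1:**
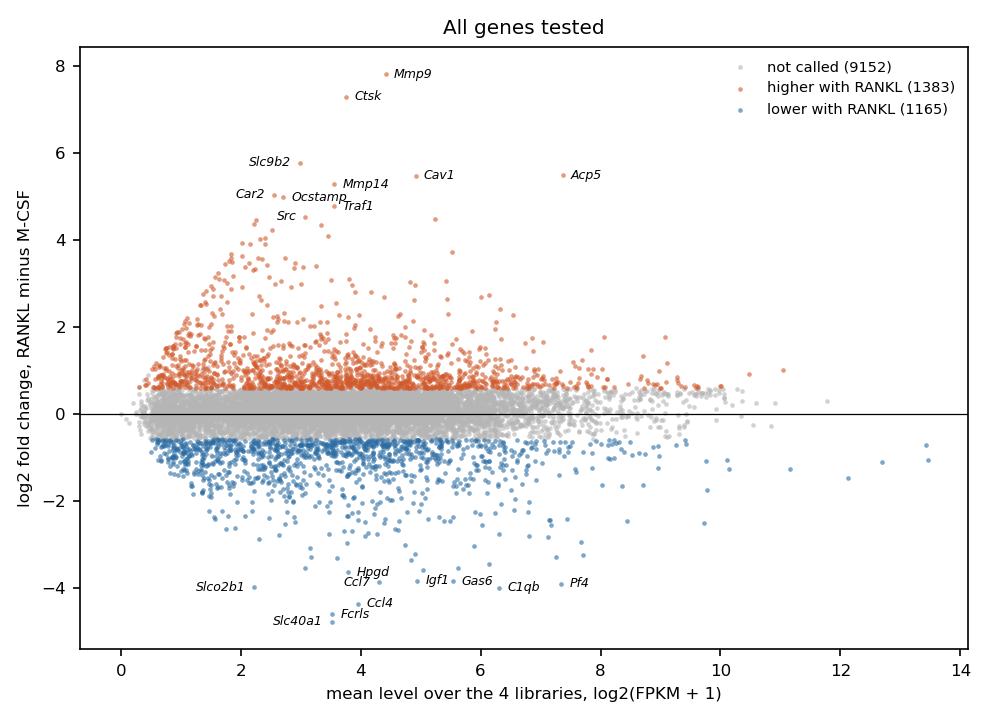
Log2 fold change of RANKL over M-CSF (vertical axis) against mean level of the 4 libraries in log2(FPKM + 1) (horizontal axis), 1 point per gene tested. Orange points are the 1383 genes called higher and blue points the 1165 called lower, and the 10 largest changes each way carry names, from Mmp9 at 7.81 to Slc40a1 at -4.78.

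The pair of genes with the largest increases on the log2(FPKM + 1) scale, Mmp9 and Ctsk, encode enzymes that digest bone matrix. Mmp9, a gelatinase that osteoclasts secrete, stood at 0.321 and 0.538 FPKM in the M-CSF libraries and at 293.9 and 345.4 with RANKL, a log2 fold change of 7.81 ± 0.10 (SE, n = 2 per group). Ctsk, the cysteine protease that digests bone collagen, went from 0.043 and 0.122 FPKM to 169.2 and 167.4, or 7.29 ± 0.10. Only 2 and 8 reads lay on Ctsk with M-CSF alone against 7260 and 9098 with RANKL, a read ratio of 1889 with a 95% counting interval of 1027 to 3939. Both genes were thus close to silent with M-CSF alone and among the well expressed genes with RANKL. Acp5, tartrate-resistant acid phosphatase, the enzyme behind TRAP staining, was already present at 24.2 and 23.1 FPKM and reached 1073 and 1137, a change of 5.49 ± 0.05 (adjusted p = 1.7e-12 in limma). Acp5 shares exon positions with 6530413G14Rik on the other strand, and reads were counted on both strands. Mmp14, a membrane-bound collagenase that activates other metalloproteinases, moved from 1.02 and 0.771 FPKM to 69.3 and 75.8.

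Several genes named here act in acid secretion. Car2, the carbonic anhydrase that supplies protons, had 2 and 0 reads with M-CSF and 1512 and 1900 with RANKL, a ratio of 1970 with a counting interval of 545 to 16272. Slc9b2, a sodium-proton exchanger of osteoclasts, went from 0.030 and 0.107 FPKM to 55.0 and 60.6 (5.78 on the log2 scale). Clcn7, the lysosomal chloride-proton exchanger of the ruffled border, rose more modestly, from 14.7 and 16.6 FPKM to 28.4 and 31.2 (0.89). Slc4a2, the bicarbonate exchanger, rose by 0.96 and Snx10, an endosomal sorting protein needed for the ruffled border, by 1.52 (both named after their values were seen). Tcirg1, the a3 subunit of the proton pump, had 154 and 161 FPKM with M-CSF and 220 and 246 with RANKL, with no overlap, but its change of 0.56 missed the 1.5-fold limit. Tcirg1 passed it without M-CSF replicate 2 (0.59) or RANKL replicate 1 (0.64). In the list of bone resorption genes 12 of 18 tested members were higher and 0 lower, with a median of 1.62 beside 0.10 for all genes. Calcr, the calcitonin receptor of mature osteoclasts, lay under the level filter and was not tested. It had 0 reads in both M-CSF libraries and 98 and 157 in the RANKL libraries (1.04 and 1.31 FPKM), at least 98.1-fold higher at a floor of 3 reads over the group.

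**Figure D2:**
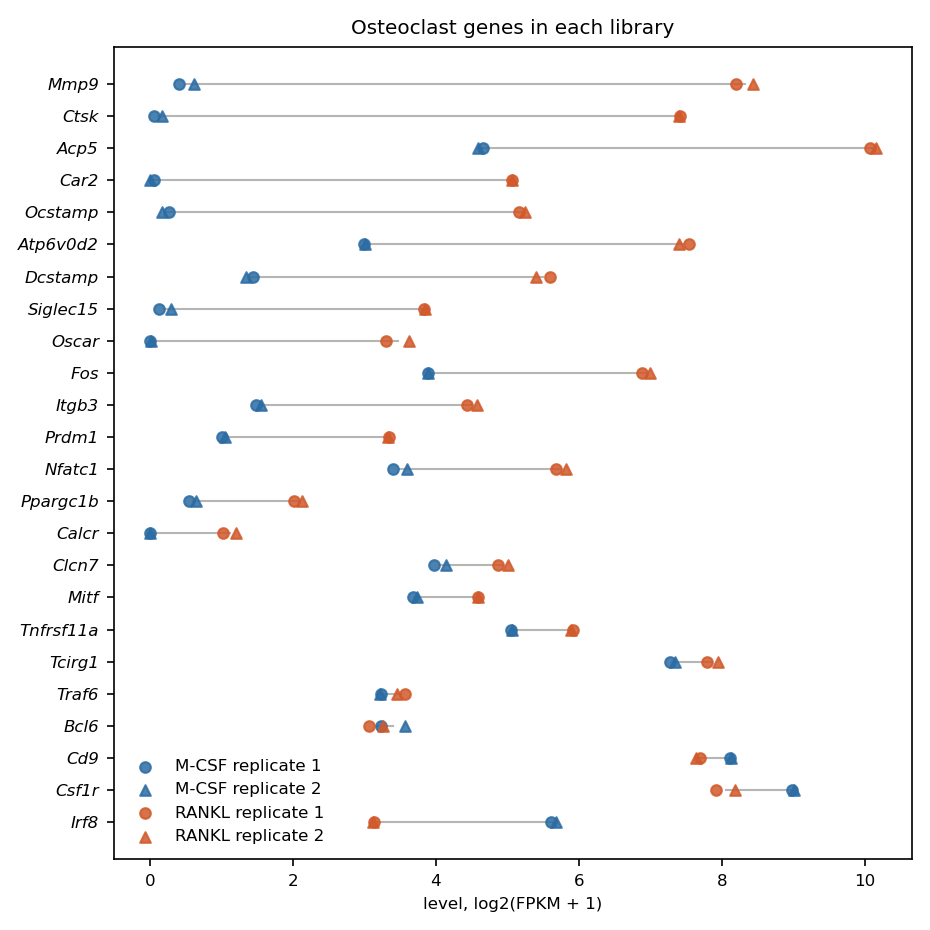
Level of 24 osteoclast genes in log2(FPKM + 1) (horizontal axis) in each M-CSF library (blue) and RANKL library (orange), circles for replicate 1 and triangles for replicate 2, joined between group means. Replicates lie close together, the widest gaps between groups are those of Mmp9 and Ctsk, and of the 24 genes only Bcl6 has overlapping groups.

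Promoters of 4 genes that rose are shown because they are the ones, among 14 of the 25 core osteoclast genes whose promoter is in the table, that hold an NFAT or AP-1 match. Each runs from 250 bases before to 50 after the gene start in RefSeq on GRCm38.p6, the sequence of mm10, 5′ to 3′ on the gene's strand, and capitals mark TTTCCA, the reverse complement of the NFAT core TGGAAA, or in Prdm1 the AP-1 element TGANTCA.
Ctsk, chr3:95498960-95499259, plus strand: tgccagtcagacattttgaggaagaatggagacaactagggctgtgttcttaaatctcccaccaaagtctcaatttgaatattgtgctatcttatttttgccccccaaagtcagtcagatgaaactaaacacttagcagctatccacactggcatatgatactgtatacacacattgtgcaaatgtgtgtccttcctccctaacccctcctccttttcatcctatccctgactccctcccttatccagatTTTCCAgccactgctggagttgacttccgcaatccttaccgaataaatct
Acp5, chr9:22130549-22130848, minus strand: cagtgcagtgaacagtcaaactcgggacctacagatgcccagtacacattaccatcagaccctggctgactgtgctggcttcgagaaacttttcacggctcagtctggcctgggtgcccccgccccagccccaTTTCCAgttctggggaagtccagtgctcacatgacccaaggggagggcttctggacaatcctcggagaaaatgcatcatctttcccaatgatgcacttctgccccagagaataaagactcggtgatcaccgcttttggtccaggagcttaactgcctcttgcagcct
Oscar, chr7:3616108-3616407, minus strand: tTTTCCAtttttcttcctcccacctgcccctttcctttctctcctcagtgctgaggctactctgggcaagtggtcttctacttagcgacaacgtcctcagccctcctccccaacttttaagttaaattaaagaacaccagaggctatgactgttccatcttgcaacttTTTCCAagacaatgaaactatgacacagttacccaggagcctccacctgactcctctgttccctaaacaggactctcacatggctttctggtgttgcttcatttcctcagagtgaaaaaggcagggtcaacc
Prdm1, chr10:44458699-44458998, minus strand: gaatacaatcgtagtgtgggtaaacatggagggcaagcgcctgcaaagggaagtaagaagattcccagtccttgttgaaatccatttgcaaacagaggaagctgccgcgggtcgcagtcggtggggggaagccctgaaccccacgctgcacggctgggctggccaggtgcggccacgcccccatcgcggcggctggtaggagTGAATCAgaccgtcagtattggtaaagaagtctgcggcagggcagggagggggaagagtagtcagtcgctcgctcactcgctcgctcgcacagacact
The NFAT match began at position 1 in Ctsk, at -117 in Acp5 and at -249 and -82 in Oscar, and the AP-1 match at -48 in Prdm1. On either strand the NFAT core was found in 19.9% and the AP-1 element in 7.41% of the 17941 promoters matched to the table, and in 3 (21.4%) and 1 (7.14%) of the 14 core promoters, too few to read a difference from. The matches are given as a description. The 7 motifs searched also included those for PU.1 (GAGGAAGT, 3.19%), E-boxes (CACGTG, 8.02%), ERR (AAGGTCA, 4.14%), NRF1 (GCGCA followed by TGCGC, 1.36%) and IRF factors (GAAA, any 2 bases and GAAA, 3.45%). Matches may overlap between motifs, as the IRF element and TGGAAA share letters.

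Fusion of precursors into multinucleated cells was represented by 20 genes, of which 19 were tested, 10 were higher and 4 lower (median 1.21). The 2 transmembrane proteins required for fusion both rose: Dcstamp from 1.72 and 1.55 FPKM to 47.2 and 41.4 (4.10), and Ocstamp from 0.208 and 0.123 to 34.7 and 37.1 (4.99). Atp6v0d2, a proton pump subunit also needed for fusion, went from 6.96 and 7.02 FPKM to 186 and 168, or 4.47 ± 0.08. Src, the tyrosine kinase of the ruffled border and podosomes, rose from 0.698 and 0.798 FPKM to 37.6 and 41.2 (4.53). Further increases, chosen after the values were seen, were those of Dock5 (2.95), an activator of Rac, and Tm4sf19 (3.59), a tetraspanin-like protein. The 4 members that fell were Cd200r1 (-2.02), the tetraspanin Cd81 (-1.09), the metalloprotease Adam8 (-0.90) and the sphingosine phosphate receptor S1pr2 (-0.83), also named after their values were seen. Cd200, the ligand of the receptor that fell, rose from 0.120 and 0.159 FPKM to 6.26 and 6.59. Cd9, another tetraspanin, had 275 and 279 FPKM with M-CSF and 206 and 198 with RANKL, a change of -0.45 that missed the fold limit.

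Subunits of the proton pump did not move alike. Among 20 V-ATPase subunits tested, 7 were higher and 1 lower, with a median of 0.50. The d2 isoform gave the increase already described, whereas Atp6v0d1, the widely used d1 isoform, stood at 88.3 and 92.8 FPKM with M-CSF and 89.3 and 96.8 with RANKL, and its fitted difference of 0.04 turned negative under other scalings (-0.03 after quantile normalization). By these per-length levels d1 exceeded d2 with M-CSF alone and d2 exceeded d1 with RANKL in both libraries. The a1 isoform Atp6v0a1 fell from 44.9 and 51.0 FPKM to 15.6 in both RANKL libraries (-1.56), opposite in direction to the value of the a3 isoform Tcirg1. The catalytic sector subunits Atp6v1b2 and Atp6v1d rose by 1.46 and 1.21. The membrane ring subunits Atp6v0b and Atp6v0c rose by 0.79 and 0.68 (chosen after their values were seen), and the call of Atp6v0c was lost without M-CSF replicate 1 (0.58) or RANKL replicate 2 (0.57).

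The 10 largest increases also included Cav1, the coat protein of caveolae, which went from 3.59 and 3.46 FPKM to 210 and 190 (5.47). Among the 10 largest decreases, Fcrls, an Fc receptor-like protein, fell from 57.4 and 54.2 FPKM to 1.26 and 1.37 (-4.62), and Slco2b1, an organic anion transporter, from 18.1 and 17.2 to 0.118 and 0.232 (-3.99). Gas6, a bridging ligand for the receptors Mertk and Axl, fell from 175 and 176 FPKM to 10.9 and 11.6 (-3.86). Hpgd, which inactivates prostaglandins, fell from 47.2 and 48.7 FPKM to 2.68 and 3.13 (-3.65). The other 6 of the largest decreases, Slc40a1, Ccl4, C1qb, Pf4, Ccl7 and Igf1, are given with their groups.

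Of 33 integrin and podosome genes tested, 9 were higher (27.3%, beside 11.8% of all genes) and 4 lower (12.1%, beside 9.96%). Their median of 0.05 became -0.01 after quantile normalization and ranged from 0.02 without RANKL replicate 2 to 0.10 without RANKL replicate 1. Itgb3, the β3 chain of the vitronectin receptor of osteoclasts, rose from 1.80 and 1.95 FPKM to 20.6 and 22.8 (2.98 ± 0.09), and its partner Itgav from 20.9 and 20.7 to 39.4 and 39.6 (0.89, named after its values were seen). Another β chain that pairs with αv moved down, Itgb5, from 89.2 and 90.3 FPKM to 33.9 and 35.1. Cttn, an actin regulator of the sealing zone, rose by 1.99 and the adaptor Bcar1 by 1.84. The other members that fell were Itga6 (-1.93), Itga9 (-1.05) and the kinase Ptk2b (-0.60), whose call was lost without M-CSF replicate 2 (-0.56) or RANKL replicate 1 (-0.48). Itgb5, Bcar1, Itga9 and Ptk2b were named after their values were seen.

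At the receptors, RANK itself (Tnfrsf11a) rose from 32.3 and 32.6 FPKM to 59.4 and 58.0 (0.84 ± 0.05), and the M-CSF receptor Csf1r fell from 503 and 514 to 241 and 290 (-0.94 ± 0.07). Exons of Csf1r are overlapped by Hmgxb3 on the other strand. Oscar, an ITAM-coupled receptor for collagen, had 0 and 1 reads with M-CSF and 441 and 714 with RANKL, a read ratio of 1334 with a counting interval of 239 to 52719. Siglec15, a sialic acid receptor that pairs with the adaptor DAP12, rose from 0.088 and 0.227 FPKM to 13.2 and 13.4 (3.63). Other ITAM genes differed in direction, all named after their values were seen. The receptor Trem2 fell by 1.02 and the adaptor Fcer1g by 0.75 on the log2 scale, the receptors Pira2 and Sirpb1a rose by 1.10 and 0.80, and the adaptor Tyrobp (DAP12) and the kinase Syk were not called (-0.06 and 0.26). Pira2 and Sirpb1a have close copies between which reads can be split. Over the 46 genes of RANK, M-CSF receptor and ITAM signaling tested, 11 were higher (23.9%) and 7 lower (15.2%), beside 11.8% and 9.96% of all genes. The list median of 0.11 was 0.04 after quantile normalization and 0.01 by voom.

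TRAF adaptors differed from one another. Traf6, which RANK uses to reach NF-κB, was not called, with 8.42 and 8.35 FPKM against 10.9 and 9.97 (0.28). Traf1, an NF-κB target that modifies TNF receptor signaling, rose from 1.29 and 1.21 FPKM to 58.3 and 62.6 (4.77), and Traf3, an inhibitor of the noncanonical NF-κB path, rose by 1.43. Inhibitors of the pathway are also among its targets. The list of NF-κB feedback genes had 10 of 16 members higher and 0 lower (median 1.14). Nfkbia, which encodes the inhibitor IκBα, went from 28 and 24.7 FPKM to 178 and 184 (2.74), and Birc3, a ubiquitin ligase of the same path, from 9.89 and 8.09 to 83.8 and 76.4 (3.03). Nfkbie rose by 2.24, and Tnip1 and Tnfaip3, chosen after their values were seen, by 2.0 and 1.32. Among the NF-κB subunits, Nfkb2 rose from 9.93 and 12.1 FPKM to 66.0 and 78.4 (2.61) and Relb by 1.67 (also chosen after its values were seen), both of the noncanonical path. Exons of Nfkb2 overlap those of Psd on the other strand. The canonical subunits were not called: Nfkb1 had 30.0 and 32.1 FPKM against 38.5 and 40.7, and Rela 24.9 and 25.8 against 26.2 and 29.3.

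Of 28 transcription factors of osteoclasts, 11 were higher, 2 lower and 15 not called (median 0.48), and 4 were lower by voom. Nfatc1, the factor on which differentiation depends, went from 9.54 and 11.1 FPKM to 50.3 and 55.4, or 2.25 ± 0.08 (adjusted p = 4.9e-09 in limma). Fos, the AP-1 subunit that acts upstream of it, stood at 13.8 FPKM in both M-CSF libraries and at 117 and 127 with RANKL (3.06 ± 0.07). Prdm1, the repressor Blimp1 that silences anti-osteoclast genes, rose from 1.02 and 1.08 FPKM to 9.18 and 9.07 (2.31). Mitf, a partner of NFATc1 on osteoclast promoters, rose from 11.8 and 12.4 FPKM to 23 and 23.1 (0.88), and Ppargc1b, a coactivator of mitochondrial genes, from 0.455 and 0.571 to 3.03 and 3.35 (1.47). Junb rose by 2.69 and, among members chosen after their values were seen, Fosl2 rose by 2.28, Myc by 1.08 and Spi1 (PU.1) by 0.84. The members that fell, again named after the fact, were Jun, from 50.1 and 50.5 FPKM to 25 and 27.3 (-0.92), and Mef2c, from 26.9 and 28.5 to 5.82 and 5.57 (-2.10). AP-1 partners thus moved in opposite directions.

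Of 18 repressors of the osteoclast fate tested, 8 fell, 10 were not called and none was called higher (median -0.50). Irf8, which maintains the macrophage state, fell from 47.8 and 50.3 FPKM to 7.77 and 7.72 (-2.52 ± 0.06). Maf fell from 87.0 and 91.5 FPKM to 17.3 and 15.8 (-2.37). Id1 fell by 1.29, and Cebpa and Klf2, chosen after their values were seen, by 1.03 and 0.91. Bcl6, a repressor that Prdm1 silences, was not called and its groups overlapped, at 8.38 and 10.9 FPKM against 7.33 and 8.62 (-0.24, adjusted p = 0.089 in limma). Irf7, the type I interferon regulator, was not called either (0.18).

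**Figure D3:**
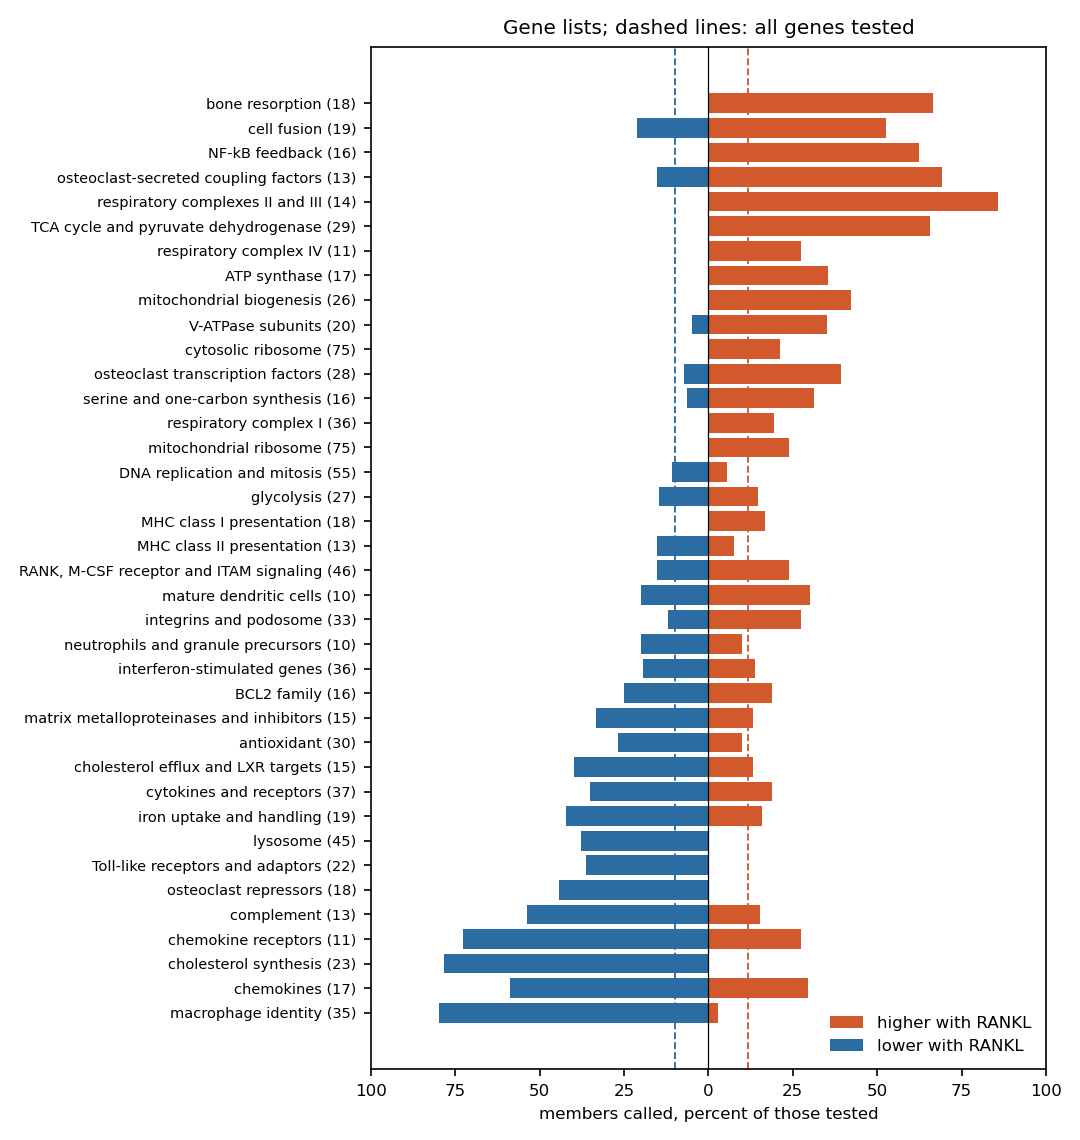
Share of the tested members of each gene list called higher (orange, right) and lower (blue, left) with RANKL, in percent, for lists with at least 10 members tested, whose number stands in brackets, ordered by median log2 fold change. Dashed lines give the shares among all genes tested, 11.8% higher and 9.96% lower, and the bars run from bone resorption at the top to macrophage identity at the bottom.

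Of 35 macrophage identity genes tested, 28 were lower, 1 higher and 6 not called, with a median of -1.47, and these 4 libraries are bulk RNA, in which fewer cells of a type and less RNA per cell cannot be told apart. Fcgr1, the high-affinity IgG receptor, fell from 112 and 113 FPKM to 9.07 and 7.90 (-3.59). Mrc1, the mannose receptor, fell from 248 and 216 FPKM to 22 and 18.5 (-3.46), and F13a1, a transglutaminase subunit, fell by 3.33. The scavenger receptors Stab1 and Cd36, with 168 to 170 and 560 to 568 FPKM in the M-CSF libraries, fell by 3.05 and 2.94. Siglec1 fell by 3.02, the efferocytosis receptors Mertk and Axl by 2.03 and 1.47, and Adgre1 (F4/80) by 0.70. Clec12a was the member that rose (0.73). The members not called were Cd209a (-0.54), Itgam (-0.47), Ly6c2 (-0.43), Cd68 (-0.25), Clec4n (0.09) and Marco (0.47), and Cd209a passed without M-CSF replicate 2 (-0.69) or RANKL replicate 2 (-0.65). Lyz2 made up most of the summed level, and its change of -0.71 became 0.20 after quantile normalization, which equalizes the most abundant genes. The summed level was 23450 and 21260 FPKM with M-CSF and 11960 and 11430 with RANKL. The genes from Stab1 to Lyz2 were named after their values were seen.

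The 3 chains of C1q fell: C1qa from 500 and 460 FPKM to 46.8 and 48.5 (-3.30), C1qb from 320 and 310 to 17.6 and 19.9 (-4.0), and C1qc from 674 and 618 to 66.5 and 67.9 (-3.25). Complement genes were lower in 7 of 13 cases and higher in 2 (median -0.75). C3, the central component, rose from 1.26 and 1.24 FPKM to 23.1 and 25 (3.48), and Cfb rose by 1.18. The 4 members not called, named after their values were seen, were C2 (-0.13), Cfp (-0.03), Itgam (-0.47) and Itgax (0.55), the last of which passed without RANKL replicate 1 (0.61). Among 22 Toll-like receptor genes and adaptors, 8 were lower and 0 higher (median -0.44). The endosomal receptors Tlr13, Tlr8 and Tlr7 fell by 1.97, 1.82 and 1.66 and Ly86, a partner of the receptor homologue CD180, by 2.55. Tlr4, the lipopolysaccharide receptor, went from 24.4 and 23.2 FPKM to 16.7 and 14.2 (-0.60), and its call was lost without M-CSF replicate 1 (-0.56) or RANKL replicate 2 (-0.48). Cd14, its coreceptor, fell by 1.65 (chosen after its values were seen).

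Chemokines were divided. Of 17 tested, 10 were lower and 5 higher (median -1.20), and of 11 receptors 8 were lower and 3 higher (median -0.76). Ccl4 fell from 64.4 and 75.7 FPKM to 1.74 and 3.31 (-4.37) and Ccl7, a monocyte attractant, from 68.2 and 82.0 to 3.88 and 4.48 (-3.87). Pf4 fell by 3.92 and Ccl12 by 3.30, and, chosen after their values were seen, Ccl2 by 2.82, Ccl6 by 2.76 and Ccl3 by 2.75. In the opposite direction Cxcl10, an interferon-inducible ligand of CXCR3, rose from 13.3 and 20.1 FPKM to 117 and 99.0 (2.65), and Ccl5 from 1.80 and 1.96 to 8.22 and 9.13 (1.75). The other 3 increases were Ccl22 (1.10), Cxcl16 (0.79) and Ccl9 (0.71), the last of them at 355 and 339 FPKM with M-CSF and 593 and 544 with RANKL. Cx3cr1, the fractalkine receptor, fell from 99.6 and 95.2 FPKM to 32.1 and 35.1 (-1.51), C5ar1 by 1.51 and C3ar1 by 1.30. The receptors that rose were Ccr1 and Ccr3, by 0.94 each, and Ccr7, by 0.66 from under 0.1 FPKM, a call lost after quantile normalization. Ccl22, Cxcl16, Ccl9, Ccr1 and Ccr3 were named after their values were seen.

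Of 37 cytokines and cytokine receptors, 7 were higher (18.9%, beside 11.8% of all genes) and 13 lower (35.1%, beside 9.96%), with a median of -0.32. Igf1, a growth factor, fell from 118 and 113 FPKM to 7.26 and 6.99 (-3.85). Vegfc, a lymphatic growth factor, had 2 reads in each M-CSF library and 566 and 743 with RANKL, a ratio of 378 with a counting interval of 147 to 1389. Met, the receptor of hepatocyte growth factor, and Pdgfa rose by 2.71 and 2.12. Il1rn, the interleukin-1 receptor antagonist, rose by 1.30 while Tnf fell by 0.71 and Il7r by 1.88 (all 3 chosen after their values were seen). Il6 and Ifnb1 lay under the filter, with 6 and 2 reads over the M-CSF libraries and 0 over the RANKL libraries. Interferon-stimulated genes had no common direction, with 5 higher and 7 lower of 36 (median -0.08, from -0.20 without M-CSF replicate 1 to -0.02 without M-CSF replicate 2), and only 3 lower without M-CSF replicate 2 and 4 without RANKL replicate 2. The 5 higher and 7 lower are 13.9% and 19.4% of the list, beside 11.8% and 9.96% of all genes. Mx1 fell by 1.61 and Stat2 by 1.10, and the increases were Cxcl10, Gbp3 (1.04) and, named after the fact, Ddx58 (0.79), Ifit1 (0.68) and Gbp2 (0.66). The call of Ifit1 was lost without M-CSF replicate 1 or RANKL replicate 1 (0.55 each). Saa3, an acute phase protein, rose by 1.27. Acod1, the itaconate enzyme, was not called (0.58) but passed without M-CSF replicate 1 (0.67).

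MHC class II genes were called in 3 of 13 cases, near the 21.8% of all genes, with Ifi30 higher (1.33) and the endosomal proteases Lgmn and Ctss lower (-1.65 and -0.71). MHC class I genes were higher in 3 of 18 cases (16.7%, beside 11.8% of all genes) and lower in none, H2-Q7 (1.58), H2-Q6 (0.81) and Tap2 (0.65). H2-Q7 and H2-Q6 are near-identical copies between which reads can be split, so their values are uncertain.

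The lists of mitochondrial respiration had calls in the higher direction only, in numbers that depended on scaling. Of 29 genes of the TCA cycle and pyruvate dehydrogenase, 19 were higher, 10 not called and 0 lower (median 0.64), and 13 were higher after quantile normalization or upper quartile scaling and 12 by voom. Idh3a, of isocitrate dehydrogenase, went from 38.9 and 40.0 FPKM to 79.9 and 78.4 (0.99) and Mdh2, malate dehydrogenase, from 162 and 169 to 300 and 329 (0.92). Pdhb, of pyruvate dehydrogenase, rose by 0.91. In respiratory complexes II and III 12 of 14 genes were higher (median 0.72), and 10 were after quantile normalization, 9 after upper quartile scaling and 8 by voom. The largest increases were those of Cyc1, cytochrome c1, from 62.7 and 66.2 FPKM to 137 and 138 (1.08), and Uqcrfs1, the iron-sulfur protein, from 59.3 and 65.1 to 128 and 123 (1.0). The cytochrome c gene Cycs rose by 0.80.

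All 36 complex I genes had a positive change, with a median of 0.44, but only 7 passed the fold limit, and 3 did after quantile normalization or upper quartile scaling and 2 by voom. Ndufv1 rose by 0.86 and Ndufs1 by 0.67. Complex IV had 3 of 11 genes higher (median 0.54): Cox5a (0.82), Cox5b (0.60) and Cox7a1 (0.59). Those of Cox5b and Cox7a1 were lost after quantile normalization and upper quartile scaling, that of Cox5b also without RANKL replicate 2 (0.58), and that of Cox7a1 without M-CSF replicate 1 (0.40) or RANKL replicate 1 (0.30). ATP synthase had 6 of 17 higher (median 0.51), 3 after quantile normalization, with Atp5g1 at 0.85 and Atp5b at 0.71. The mitochondrial ribosome had 18 of 75 higher and 0 lower (median 0.42), and 73 of 75 changes were positive. Mrps6 rose most, from 13.1 and 12.2 FPKM to 43.0 and 51.0 (1.81), and it shares exon positions with Slc5a3 on the same strand. Of 26 genes of mitochondrial biogenesis, 11 were higher (median 0.51), among them the chaperone Hspd1 (1.10), the import pore Tomm40 (0.93) and Ppargc1b.

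**Figure D4:**
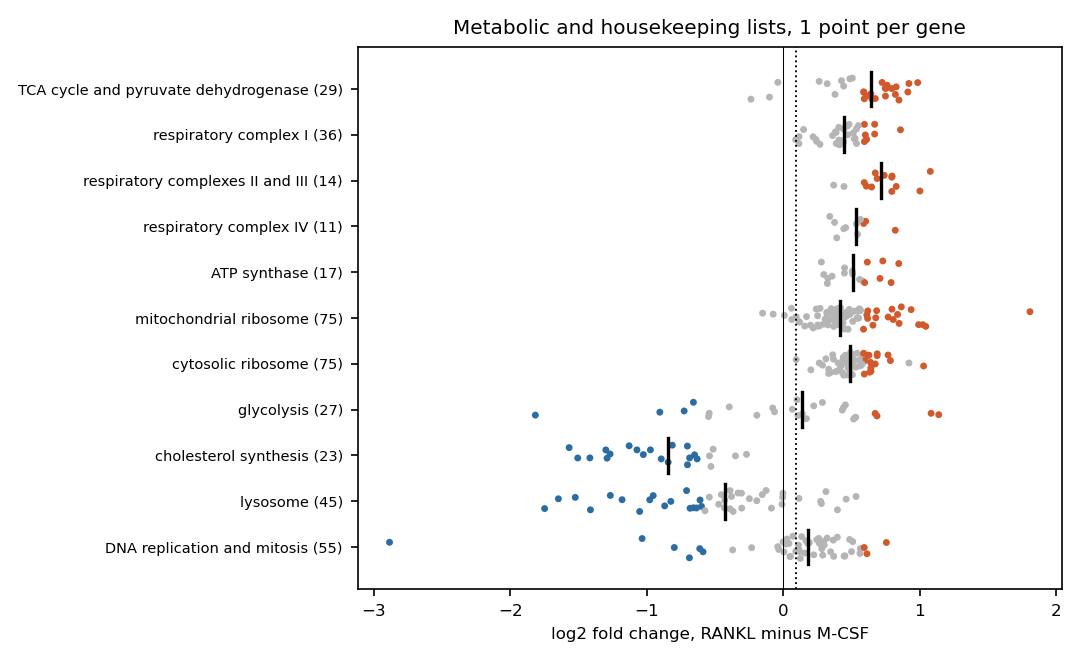
Log2 fold change of RANKL over M-CSF for each tested member of 11 metabolic and housekeeping lists, with the number of members in brackets; orange is called higher, blue called lower and grey not called. Black bars are list medians and the dotted line is the median of all genes (0.10), and the mitochondrial and ribosomal lists lie to its right while cholesterol synthesis (-0.84) and the lysosome (-0.43) lie to its left.

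Glycolysis had no common direction, with 4 higher and 4 lower of 27 (14.8% each, near the 11.8% and 9.96% of all genes) and a median of 0.14, which was 0.21 without RANKL replicate 1 and 0.05 after quantile normalization. Hk3, a myeloid hexokinase, fell from 129 and 127 FPKM to 33.8 and 37.5 (-1.82) and Pfkfb4 by 0.90, and Pfkfb3 and the glucose transporter Slc2a3 fell by 0.73 and 0.66. The lactate transporter Slc16a1 and Ldhb rose by 1.08 and 1.14, and Slc16a3 and Eno1 by 0.69 and 0.67. The call of Eno1 was lost by voom. In serine and one-carbon synthesis 5 of 16 were higher, or 8 with a pseudocount of 0.1, and 1 was lower (median 0.46): Chac1 (1.27), Shmt1 (1.12), Asns (1.01), Shmt2 (0.95) and Phgdh (0.81) rose and the amino acid transporter chain Slc3a2 fell by 0.88. Pfkfb3, Slc2a3, Slc16a3, Eno1, Phgdh and Slc3a2 were named after their values were seen.

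Cholesterol synthesis fell along its length. Of 23 genes tested, 18 were lower and 0 higher, no change was positive, and the median was -0.84. Fdft1, squalene synthase, fell from 37.0 and 39.2 FPKM to 12.5 and 13 (-1.51) and Fdps from 94.5 and 98.7 to 40.4 and 36.9 (-1.30). Exons of Fdft1 overlap those of Ctsb on the other strand. Insig1, the sterol sensor, fell by 1.57 and Cyp51 by 1.42. The regulator Srebf2, chosen after its values were seen, did not pass the fold limit (-0.54) but did after quantile normalization (-0.62). Genes of cholesterol efflux gave 2 higher (13.3%) and 6 lower (40%) of 15, beside 11.8% and 9.96% of all genes. The list median of -0.26 was -0.14 without M-CSF replicate 2 and -0.16 without RANKL replicate 1. Apoe fell from 852 and 787 FPKM to 134 and 161 (-2.47) and Scd2 by 1.81, whereas the sterol receptor Nr1h3 (LXRα) rose from 2.37 and 1.58 to 14.2 and 13.5 (2.33) and the lipid transfer protein Pltp from 40.5 and 42.8 to 186 and 224 (2.27). Exons of Pltp overlap those of Ctsa on the other strand.

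Iron handling contained the largest decrease among all genes tested on the log2(FPKM + 1) scale. Slc40a1, ferroportin, the exporter of iron, fell from 60.4 and 57.6 FPKM to 1.15 and 1.20 (-4.78 ± 0.06, adjusted p = 1.2e-11 in limma). The ferritin chains Ftl1 and Fth1, with 16700 and 15670 and with 7470 and 7493 FPKM in the M-CSF libraries, fell by 1.05 and 1.47, and the call of Ftl1 was lost after quantile normalization (-0.20). Trf, transferrin, fell by 2.31 and Hmox1, which releases iron from heme, by 2.04. The transferrin receptor Tfrc rose by 0.68, Ncoa4, the ferritin cargo receptor, by 0.73, and Steap4, a metalloreductase, from 4 and 0 reads to 249 and 287. The list had 3 higher (15.8%, beside 11.8% of all genes) and 8 lower (42.1%, beside 9.96%) of 19 (median -0.34). Ftl1, Fth1, Tfrc and Ncoa4 were named after their values were seen.

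Antioxidant genes were lower in 8 (26.7%, beside 9.96% of all genes) and higher in 3 (10%, beside 11.8%) of 30 cases (median -0.22). Prdx1, the protein used as a treatment elsewhere in the series, had 1294 and 1221 FPKM of its own transcript with M-CSF and 620 and 567 with RANKL (-1.08). Gpx3 fell by 2.01, Gclm by 1.5 and catalase (Cat) by 1.29. Cybb, the catalytic chain of the phagocyte NADPH oxidase, fell by 1.13 while its partner Ncf4 rose by 1.20, and the other members that rose were Prdx2 (0.88) and Sod2 (0.78), all 4 named after their values were seen. Without RANKL replicate 2 the number higher was 5.

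Lysosomal genes fell in 17 of 45 cases and none was higher (median -0.43). Ctsb, cathepsin B, fell from 1591 and 1632 FPKM to 462 and 496 (-1.75). Lgmn, legumain, fell from 714 and 761 FPKM to 231 and 238, and Ppt1 and Pla2g15 fell by 1.52 and 1.41. Ctsd, Lamp2 and Lamp1, chosen after their values were seen, fell by 1.27, 0.98 and 0.60. The genes Ctsk, Acp5 and Clcn7, which rose, are not members of this list but of the bone resorption list, so the absence of increases depends on how the list was drawn. Among 15 metalloproteinases and inhibitors, Mmp9 and Mmp14 were higher and 5 were lower (median -0.20, or -0.13 without M-CSF replicate 2): Mmp13 (-1.67), Mmp8 (-1.61) and, named after the fact, Adam15 (-1.07), Mmp12 (-0.92) and Adam8. The calls were 13.3% higher and 33.3% lower, beside 11.8% and 9.96% of all genes.

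Of 75 genes of the cytosolic ribosome tested, 16 were called higher and 59 were not called, with all 75 changes positive and a median of 0.49. After quantile normalization 3 passed, and 6 did after upper quartile scaling or by voom. Rpl30 went from 155 and 153 FPKM to 331 and 302 (1.03) and Rpl13a from 470 and 477 to 805 and 812 (0.77). Ribosomal protein genes have many near-identical pseudogenes between which reads can be lost, and Rps2 was listed at only 2.49 and 3.14 FPKM with M-CSF and 4.36 and 7.01 with RANKL, so these values are uncertain. The call of Rps2 was lost without RANKL replicate 2 (0.498), and that of Rpl23a (0.69) without M-CSF replicate 2 (0.57).

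DNA replication and mitosis genes gave 3 higher and 6 lower of 55 (median 0.18). These are 5.5% and 10.9% of the list, the first under the 11.8% and the second near the 9.96% of all genes tested. There were 5 higher without RANKL replicate 1 and 1 after quantile normalization, after upper quartile scaling or by voom. Ccnd2, cyclin D2, fell from 13.2 and 11.7 FPKM to 0.693 and 0.959 (-2.89) and cyclin D1 (Ccnd1) by 0.69. The cell cycle inhibitors Cdkn2a and Cdkn1a fell by 1.03 and 0.80 and Cdkn1c rose by 0.76 from a low level. The other increases were Cdc20 (0.61) and Mcm10 (0.59), both lost without RANKL replicate 2 (0.51 and 0.56) and Mcm10 also without M-CSF replicate 1 (0.52). In the BCL2 family 3 were higher (18.8%, beside 11.8% of all genes) and 4 lower (25%, beside 9.96%) of 16 (median -0.12). Bcl2l1 (BCL-XL), a survival factor, fell from 58.4 and 63.6 FPKM to 8.77 and 8.64 (-2.67) and Bcl2 by 1.62. The pro-death genes Pmaip1 and Bmf rose by 1.66 and 1.61, and Bik and Bid fell by 1.53 and 0.82. Bcl2a1a, a survival gene with near-identical copies, had 0 and 9 reads with M-CSF and 95 and 106 with RANKL. Ccnd1, Cdc20, Mcm10, Bmf, Bik and Bid were named after their values were seen.

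Osteoclasts send signals to osteoblasts through secreted and surface coupling factors. Of 23 such genes 13 were tested, 9 were higher (69.2%, beside 11.8% of all genes) and 2 lower (15.4%, beside 9.96%), with a median of 1.08. With a mean FPKM of at least 2 required, 8 were tested, of which 5 were higher and 1 lower. The filter favours increases here, as members near 0 with M-CSF alone, such as Vegfc, pass it through other libraries. Spns2, an exporter of sphingosine phosphate, went from 5 and 2 reads to 1172 and 1497, a ratio of 440 with a counting interval of 213 to 1096, and Sphk1, which makes that lipid, from 0 and 5 reads to 61 and 87. Sema4d, a semaphorin that inhibits osteoblasts, rose from 48.3 and 53.0 FPKM to 119 and 125 (1.25), Efna2 rose by 1.75 and Bmp2 by 1.08. C3 and Vegfc, already given, belong here too. The members that fell were Igf1 and Hgf (-0.99). Sphk1, Sema4d, Efna2, Bmp2 and Hgf were named after their values were seen.

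Markers of other cell types were low in these libraries. Neutrophil and granule markers summed to 27.7 and 22 FPKM with M-CSF and 23.3 and 20.1 with RANKL, with S100a8 higher (0.97) and Csf3r and Mmp8 lower among 10 tested (median -0.01). Mature dendritic cell markers summed to 28.9 and 28 against 30.6 and 29.9, with Cd80 (1.07), Ccr7 and, named after the fact, Fscn1 (0.62) higher, and Cd83 (-2.02) and Batf3 (-0.90) lower among 10 tested. Their median of 0.09 ranged from 0.002 without M-CSF replicate 2 to 0.18 without M-CSF replicate 1. The call of Fscn1 was lost without M-CSF replicate 1 (0.47) or RANKL replicate 1 (0.46). B, T and NK cell markers summed to 1.39 and 1.53 against 2.0 and 1.38, and mast cell and basophil markers to 0.083 and 0.087 against 0.071 and 0.185. Of the lymphoid list only Cd4 was tested (0.27, not called), and of the mast cell list no gene was. Erythroid and megakaryocyte markers without Pf4, which macrophages also express, summed to 0.513 and 0.436 against 0.826 and 0.420. Stromal and osteoblast markers without Spp1, another macrophage product, summed to 10.9 and 13.3 against 10.7 and 12.7, with a median of -0.05 over 8 tested. Spp1 (osteopontin) fell from 1988 and 2050 FPKM to 364 and 344 (-2.51). Listed at 0 in all 4 libraries were 2 of 14 lymphoid markers (Cd3e and Ncr1), 6 of 9 mast cell and basophil markers (Cpa3 and Fcer1a among them), 3 of 12 erythroid and megakaryocyte markers (Hbb-bt and Car1 among them) and 3 of 19 stromal markers (Bglap, Bglap2 and Lum), and none of the neutrophil or dendritic cell markers. The part of these cell types in the results above was not tested.

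For most of the osteoclast genes the effect of RANKL was smaller in cells that also received PRDX1. The interaction, the RANKL effect with PRDX1 minus that without it, passed an adjusted p under 0.05 in limma for 2707 genes (23.1%), and for 20 of the 24 osteoclast genes tested. These contrasts share no library. Without RANKL+PRDX1 replicate 2 the interaction passed for 1798 genes. Ctsk stood at 0.081 and 0.324 FPKM with PRDX1 and at 8.12 and 8.46 with both agents, a RANKL effect of 2.96 in place of 7.29. Mmp9 changed by 3.87 in place of 7.81, with 27.7 and 29.8 FPKM under both agents. For Atp6v0d2 the effect was 0.21 in place of 4.47, and for Nfatc1 0.94 in place of 2.25. Irf8 fell by 1.24 with PRDX1 and by 2.52 without it. The interaction did not pass for Csf1r (0.27, adjusted p = 0.091 in limma), Traf6 (-0.24, adjusted p = 0.11), Bcl6 (0.19, adjusted p = 0.44) or Cd9 (0.03, adjusted p = 0.83), whose sign also turned without PRDX1 replicate 2 (-0.06) or RANKL+PRDX1 replicate 1 (-0.02). That of Csf1r passed without RANKL replicate 2 (0.40), after quantile normalization (0.38), by voom (0.29) and with the replicate block (0.27).

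**Figure D5:**
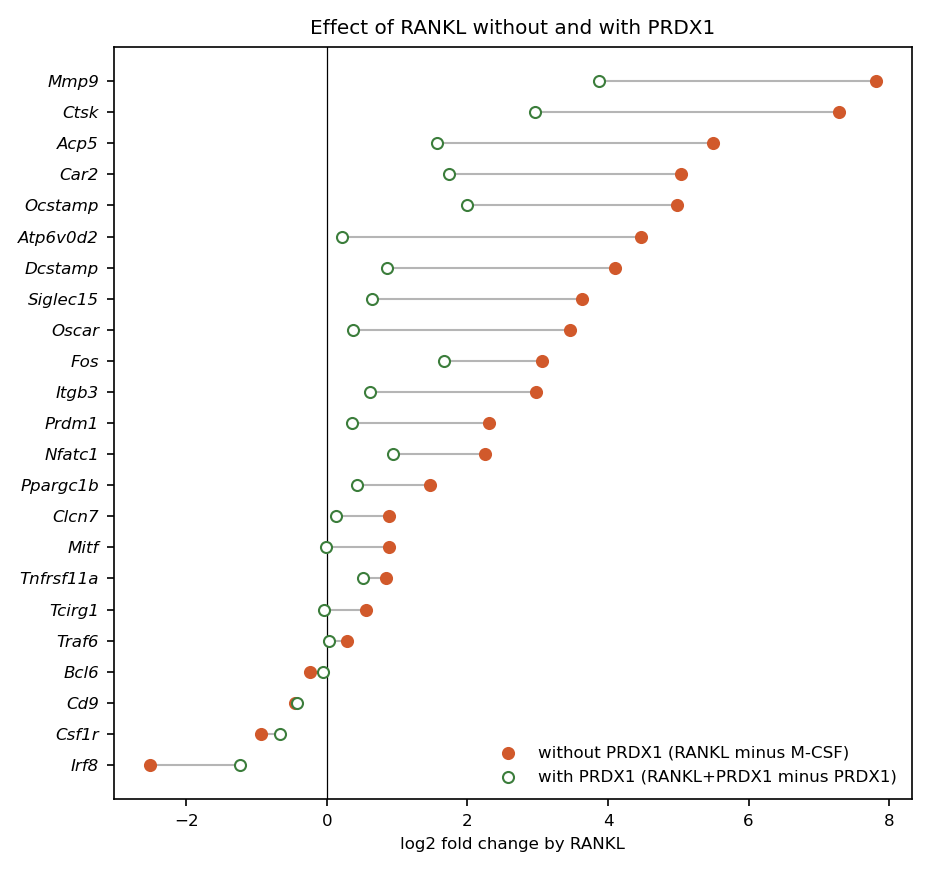
Log2 fold change by RANKL (horizontal axis) of 23 osteoclast genes without PRDX1 (filled orange, RANKL minus M-CSF) and with PRDX1 (open green, RANKL+PRDX1 minus PRDX1). Every gene but Cd9, whose points nearly coincide, has its open point closer to 0 by a visible distance, as for Atp6v0d2 at 0.21 against 4.47.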

How the data were processed

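RNA from 8 libraries in 4 groups of 2 was sequenced as 100-base pairs. The submitters' processing notes name HISAT2, HOMER, DESeq2 and mm10, with no versions. The deposited table gives FPKM per RefSeq gene, which the authors made by counting reads on exons of both strands and dividing by transcript length and library total, and it also holds the length (another, unnormalized value). No per-sample column was left out (0 unused). Multiplying FPKM by length gave whole reads for 100% of the values checked (tolerance 0.1 read), hence the depths; counting intervals (95%) and the floor of 3 reads cover counting error only.

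For the 11700 genes at or above 0.5 FPKM on average, log2(FPKM + 1) was fitted with limma 3.58.1 in R 4.3.3, with an intensity trend and one model of the 4 groups (4 residual degrees of freedom), and calls needed a Benjamini-Hochberg adjusted p under 0.05 and at least a 1.5-fold change, the thresholds of the study's methods. The steps were tested on simulated data, in which the changed genes had changes above the fold limit and were not of few reads. Calls near that limit or on few reads were not covered. Named genes were, by rule, the 10 largest increases and decreases among calls without overlap, 25 core osteoclast genes, every gene the paper names, and up to 4 members of each of 42 lists; others are marked as chosen after their values were seen. The members and lists were chosen with earlier results of these data known, and lists were described without a test. Promoters were matched for 76.7% of the genes tested, under 80%, so motif shares among called genes are void and not given. Some genes are not reported here. Alternatives were the pseudocount, the filters, the scaling, voom on recovered reads, fold limits, a replicate block, only these 4 libraries, and leaving out each library.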

Additional observations from a re-analysis of the deposited data

Results flagged for a closer look

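The effect of RANKL differed between cells without and with PRDX1 for 20 osteoclast genes, of which 19 are given here, by the interaction test of limma at an adjusted p under 0.05, beside 23.1% of all genes tested. The values are log2 fold changes by RANKL with PRDX1 minus those without it. Among resorption, fusion and receptor genes the interaction was Ctsk (-4.33), Atp6v0d2 (-4.26), Mmp9 (-3.94), Acp5 (-3.91), Car2 (-3.30), Dcstamp (-3.25), Oscar (-3.08), Siglec15 (-2.99), Ocstamp (-2.99) and Itgb3 (-2.36). For the other genes with a positive RANKL effect it was Prdm1 (-1.95), Fos (-1.40), Nfatc1 (-1.32), Ppargc1b (-1.04), Mitf (-0.89), Clcn7 (-0.75), Tcirg1 (-0.60) and Tnfrsf11a (-0.33). For the repressor Irf8, which fell with RANKL, it was 1.28, so that it fell less when PRDX1 was present. Tcirg1 is among these genes although its own RANKL effect missed the 1.5-fold limit. None of these interactions lost its call or changed sign under quantile normalization, upper quartile scaling, a pseudocount of 0.1, voom or the replicate block, or with any 1 of the 8 libraries left out. Leaving out the 4 libraries with PRDX1 in turn was added after the data were seen.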

How the results depend on the processing

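The 2548 calls became 7012 (4328 higher, 2684 lower) with no minimum fold change and 1025 (508 higher, 517 lower) at a fold change of at least 2. Under the other settings they numbered 2169 to 3090, with 2547 to 2615 when 1 library was left out; 85.01% to 100% of the calls were kept and 0 turned to the opposite direction. The interaction count of 2707 ranged from 2113 to 3129 (2113 to 2732 without an M-CSF or RANKL library), and from 1798 (without RANKL+PRDX1 replicate 2) to 2053 when 1 of the 4 libraries with PRDX1 was left out, which was added after the data were seen. The Cd9 interaction then reached 0.12 (without PRDX1 replicate 1) and reversed to -0.055 without PRDX1 replicate 2 and -0.024 without RANKL+PRDX1 replicate 1. Same-numbered replicates deviated together only weakly (correlation 0.0085 to 0.096 over genes, 0.094 for M-CSF with RANKL), all under 0.1. The replicate numbers in the header's command differ in part from those of the labels, so whether equal numbers mark a shared culture is unknown. The replicate block gave 1386 higher and 1165 lower. Of the medians of the lists, that of integrins and podosome reversed to -0.0075 after quantile normalization, -0.013 after upper quartile scaling and -0.045 by voom. With 1 library left out, the neutrophil median ranged from -0.11 (without RANKL replicate 1) to 0.10 (without RANKL replicate 2), reversing also without M-CSF replicate 1 (0.0079), and the stromal median from -0.14 (without M-CSF replicate 1) to 0.052 (without M-CSF replicate 2), reversing also without RANKL replicate 1 (0.043). Atp6v0d1 reversed to -0.026 after quantile normalization, -0.028 after upper quartile scaling, -0.060 by voom and -0.019 without RANKL replicate 2, and Lyz2 to 0.20 after quantile normalization. With 1 library left out, Tyrobp ranged from -0.16 to 0.038, Cfp from -0.10 to 0.049 and Clec4n from -0.071 to 0.24 (the ends without M-CSF replicates 2 and 1). Among small lists, mature dendritic cell markers gave 1 higher after quantile normalization and 4 lower with a pseudocount of 0.1 or by voom. By voom the medians of repressors, chemokines, complement, antioxidant genes and metalloproteinases were further below 0 (-0.80, -1.81, -1.23, -0.33 and -0.34), that of the BCL2 family was -0.21 and that of DNA replication and mitosis 0.10, and that of iron handling was -0.20 after quantile normalization. The causes were not tested. Genes near the fold limit, such as Cox7a1, Tlr4 and Tcirg1, crossed it in either direction when 1 library was left out, and genes of a few reads, such as Snord57, are limited by depth.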

Other observations

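Genes that went from at most 3 reads in each M-CSF library to a called increase numbered 42 of the 1383 called higher, and 20 were at least 200 bases long. In the opposite direction there were 8 of the 1165 called lower, with 1 of that length. Genes so low with M-CSF alone pass the level filter mostly through the other libraries, which favours increases, so these counts are only a description. Of the 42, 16 had no read in either M-CSF library. Among the most abundant, chosen after their values were seen, were Rufy4 (735 and 952 reads with RANKL, at least 649-fold higher at a floor of 3 reads over the group), the receptor tyrosine kinase Mst1r (377 and 572 reads, at least 365-fold) and the succinate receptor Sucnr1 (299 and 287 reads, at least 226-fold). The serotonin transporter Slc6a4 went from 0 and 4 reads to 1585 and 1993, a ratio of 1033 with a counting interval of 403 to 3793.

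The following genes lie outside the lists and were again chosen after their values were seen. Scin, an actin-severing protein, went from 0.283 and 0.466 FPKM to 20.4 and 18.5 (log2 fold change 3.90), Myo1d rose by 3.34, and Cavin3, a caveolar coat protein, by 2.93. Fgr, a kinase of the Src family, rose from 1.14 and 1.34 FPKM to 43.3 and 45.7 (4.35). The transcription factors Jdp2, an AP-1 family member, and Bhlhe40 rose by 3.72 and 3.08. On the macrophage side Pros1, like Gas6 a bridging ligand for engulfment receptors, fell from 18.5 and 18.7 FPKM to 3.95 and 3.09 (-2.12), and Hpgds, a prostaglandin D synthase, from 71.5 and 63.7 to 14.5 and 12.4 (-2.24).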
